A study of Mus musculus with 15 samples.

Results

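The unfolded protein response is the programme by which a cell raises its capacity to fold and clear proteins when unfolded protein builds up in the endoplasmic reticulum (ER). The chaperone BiP, product of Hspa5, holds the ER membrane sensors PERK, IRE1 and ATF6 inactive until it is drawn away by unfolded protein. ATF6 is then cleaved into a transcription factor, IRE1 splices the Xbp1 message, and PERK phosphorylates the translation factor eIF2alpha, which lowers protein synthesis overall but raises translation of ATF4. In the kidney the response is known mainly from tubular epithelium and podocytes, which secrete and turn over much membrane protein.

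Described here are 10 genes of this response, chosen by name and found in the gene table by the Ensembl identifiers that GENCODE M21 pairs with those names. By role they are the ER chaperones and co-chaperone Hspa5, Hsp90b1, Calr and Dnajb9, the ER-associated degradation factor Herpud1, the sensor Atf6, the transcription factors Xbp1, Atf4 and Ddit3 (which encodes CHOP), and Trib3, a pseudokinase induced by ATF4 and CHOP. Each was read in 15 kidneys of male C57BL/6 mice that were 8 weeks old on arrival, 5 mice a group. The control group (C) ate chow without adenine. The CKD model group (M) ate chow with 0.25% adenine, which injures the tubules, for 4 weeks. The AA group ate the same adenine chow and also received asiatic acid (AA), a triterpene of Centella asiatica, by daily gavage at 30 mg/kg. All mice ate standard chow from week 5 to week 8 while AA gavage went on, and C and M mice were gavaged with the vehicle of 1% DMSO in saline. The M kidneys were therefore taken after 4 weeks away from adenine, and no group received AA without adenine.

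Values are FPKM, fragments per kilobase of gene divided by a factor for each library, which allows levels to be set side by side between genes. That factor followed size factors between libraries and not the fragment total of the library. A gene is called where limma, fitted on log2(FPKM + 1) across all genes, gave an adjusted p no higher than 0.05 (Benjamini-Hochberg) together with a change of 1 or more on the log2 scale, up or down. Whole kidney was sequenced, so that fewer cells of a type and less RNA per cell cannot be told apart.

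The libraries were unequal. Outside the mitochondrial genome, C libraries held 6951324 to 13576138 fragments, M libraries 2077636 to 7142923 and AA libraries 2225754 to 4271167. M mice 1 to 3 stood apart, with 10068 to 12222 genes above 0 against 23040 and 25460 in M mice 4 and 5, so the M comparisons of Dnajb9, Herpud1, Atf4, Ddit3 and the gene lists are also given for either set of M mice. The 10 proximal tubule markers summed to between 3047 and 12550 FPKM in C, 93.4 and 541.2 in M and 166 and 560 in AA kidneys, and none of them was at 0 throughout a group. Most of each sum came from 1 gene, Kap, at 2779 to 10538 FPKM in C, 81.2 to 500.1 in M and 126 to 486 in AA. All 10 markers had a negative log2 fold change in M vs C, and 6 were called.

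Several promoters of this response carry the ER stress response element (ERSE), bound by ATF6 together with NF-Y, which reads CCAAT, then 9 bases of any kind, then CCACG. The letters were searched on both strands from 250 bases before to 50 bases after each RefSeq gene start on GRCm38, and 9 of the 10 genes had such a window (Atf6 had none). ERSE was found in 39 of 32851 windows, or 0.119%, and in those of Hspa5, Hsp90b1 and Calr. The shorter variant ERSE-II, ATTGG and CCACG with 1 base between them, was found in 0.0365% of windows and in that of Herpud1. The sites are shown as those of the members that hold either motif. Each is printed on the strand that reads the motif, with its fixed letters in capitals and the strand of the genome named.
Hspa5, chr2:34772020-34772048, plus strand: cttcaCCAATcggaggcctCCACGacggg
Hsp90b1, distal site, chr10:86705633-86705661, minus strand: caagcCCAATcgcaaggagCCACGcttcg
Hsp90b1, proximal site, chr10:86705528-86705556, plus strand: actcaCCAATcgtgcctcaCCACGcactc
Calr, chr8:84847070-84847098, plus strand: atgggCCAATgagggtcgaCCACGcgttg
Herpud1, ERSE-II, chr8:94386368-94386396, plus strand: cgggcgctgATTGGgCCACGttggacact

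The windows of Atf4 and Ddit3 held neither motif. The stretch from 160 to 31 bases before each start follows, with CCAAT, the NF-Y side of ERSE, in capitals wherever it stood on either strand. It occurred 2 times for Atf4 and 1 time for Ddit3 in these 130 bases.
Atf4, chr15:80255024-80255153, plus strand: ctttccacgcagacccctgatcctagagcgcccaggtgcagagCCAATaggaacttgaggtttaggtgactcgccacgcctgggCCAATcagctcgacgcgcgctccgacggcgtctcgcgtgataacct
Ddit3, chr10:127290633-127290762, plus strand: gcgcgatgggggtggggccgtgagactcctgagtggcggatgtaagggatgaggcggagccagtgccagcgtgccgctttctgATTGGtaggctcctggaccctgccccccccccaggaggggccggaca

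Other motifs of the pathway were not found in the windows of the 9 genes. The XBP1 and ATF6 element TGACGTGG stood in 0.676% of all windows, and TGATGNAAT, a core of the elements bound by ATF4 with C/EBP partners, in 0.965%. A match is a run of letters and was not tested as a site in these kidneys, and elements known further upstream lie outside the window.

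Hspa5 (ENSMUSG00000026864, chr2:34771970-34777547, plus strand), the master chaperone of the ER, stood at 26.1, 19.7, 20.5, 16.4 and 17.6 FPKM in C mice 1 to 5. It stood at 17.8, 23.3, 40.4, 21.5 and 16.0 FPKM in M mice 1 to 5, and at 42.6, 23.9, 39.9, 34.8 and 41.2 FPKM in AA mice 1 to 5. AA mice 1, 3, 4 and 5 lay above every C mouse, AA mouse 2 lay below C mouse 1, and M mouse 3 reached the AA range. The log2 fold change of AA vs C was 0.82 (SE 0.23, adjusted p = 0.0153 by limma), which passed the p threshold but not the fold threshold, so Hspa5 is not among the genes called. At the p threshold alone 19.5% of the 21898 genes tested in this comparison were higher in AA.

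Hsp90b1, which encodes the ER paralog of HSP90 known as GRP94, stood at 18.1, 12.8, 13.9, 13.4 and 15.3 FPKM in C mice, at 20.7, 30.1, 24.9, 17.8 and 10.7 FPKM in M mice and at 30.3, 13.6, 25.3, 18.4 and 29.9 FPKM in AA mice. AA mice 1, 3, 4 and 5 lay above every C mouse, and AA mouse 2 lay within the C range. The log2 fold change of AA vs C was 0.59 (SE 0.25, adjusted p = 0.0818 by limma), past neither threshold. Hsp90b1 lies over genes on the opposite strand, and 12.3% of the 31-base words of its transcripts also occur in those of other genes, chiefly 1810014B01Rik, so its level is less certain.

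Calr encodes calreticulin, a lectin chaperone that binds calcium and newly made glycoproteins. It stood at 42.8, 28.2, 28.2, 31.4 and 25.2 FPKM in C mice, at 18.6, 29.2, 34.8, 35.3 and 20.8 FPKM in M mice and at 52.6, 26.5, 57.2, 38.5 and 55.3 FPKM in AA mice. It had the highest mean of the 10 genes in all 3 groups. AA mice 1, 3 and 5 lay above every C and M mouse, while AA mouse 2 lay below 4 of the C mice. The log2 fold change of AA vs C was 0.52 (SE 0.26, adjusted p = 0.136 by limma).

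AA mouse 2 was the lowest of its group in all 3 of these genes, and its library had the largest mitochondrial share of the 15, 87.2%. The next largest shares were those of M mouse 3, at 86.8%, and M mouse 1, at 86.05%. In M mouse 3 Hspa5, Hsp90b1 and Calr stood at 40.4, 24.9 and 34.8 FPKM. In M mouse 1 they stood at 17.8, 20.7 and 18.6 FPKM. The part of the mitochondrial share in these values was not tested. Without AA mouse 2, the log2 fold change of AA vs C was 0.96 for Hspa5, 0.77 for Hsp90b1 and 0.70 for Calr. These were the highest values when each mouse was left out, and the lowest were 0.76, 0.49 and 0.43. The part of AA mouse 2 in the group means beyond these values was not tested.

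The direction of the chaperones depended on how libraries were scaled. As TPM, where every library has the same total and its mitochondrial transcripts count in it, AA vs C was -0.25 for Hspa5, -0.46 for Hsp90b1 and -0.57 for Calr. With mitochondrial genes left out and the rest rescaled it was 0.75, 0.52 and 0.43, and Hspa5 then had an adjusted p of 0.0733 by limma. Mitochondrial genes held 53 to 62.5% of the fragments of C libraries and 69.2 to 87.2% of those of AA libraries, and the median of AA vs C over all genes was -0.39 as TPM and 0.091 as deposited.

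**Figure D1:**
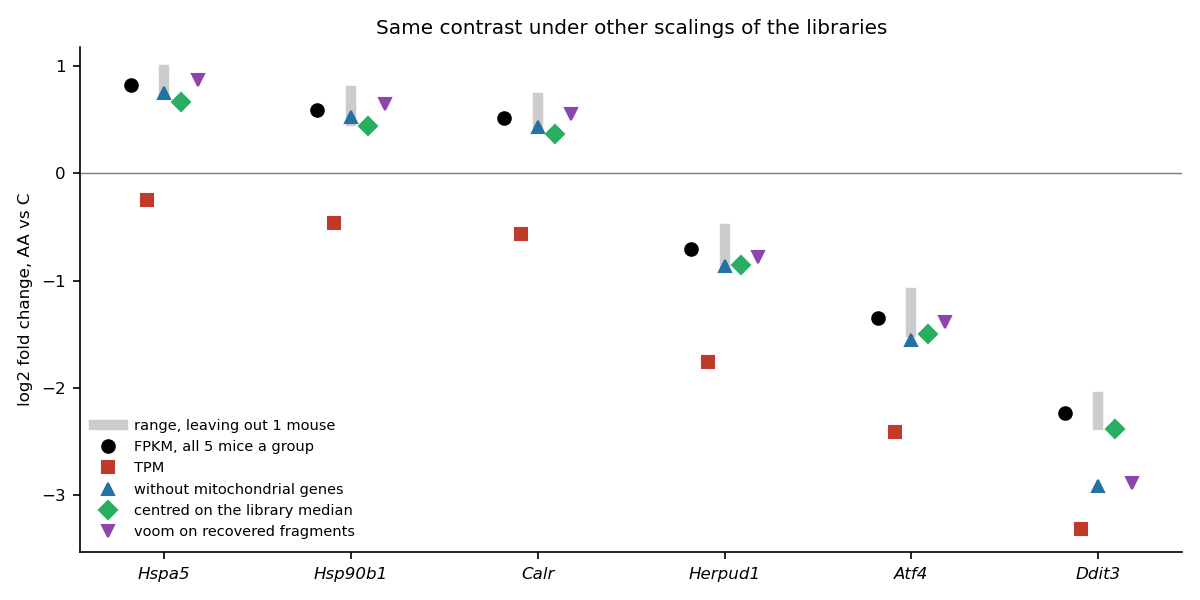
Log2 fold change of AA vs C (vertical axis) for 6 of the genes under 5 scalings of the libraries, with a grey bar for the range when each mouse was left out in turn. Hspa5, Hsp90b1 and Calr lie above 0 under every scaling drawn except TPM, while Herpud1, Atf4 and Ddit3 lie below 0 under all of them.

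Dnajb9, also known as ERdj4, is a BiP co-chaperone and a target of spliced XBP1. It stood at 3.93, 1.85, 6.44, 4.28 and 3.4 FPKM in C mice, at 12.2, 10.9, 13.3, 3.24 and 1.21 FPKM in M mice and at 4.84, 5.44, 4.18, 6.71 and 5.41 FPKM in AA mice. M mice 1 to 3 exceeded all other libraries and M mice 4 and 5 lay at the lower end, so the M group was split along its difference in genes detected. M vs C was 0.62 (SE 0.51, adjusted p = 0.563 by limma) with all M mice, 1.46 (adjusted p = 0.00975) with M mice 1 to 3 and -0.64 (adjusted p = 0.611) with M mice 4 and 5. Of its 31-base words 10.8% occur in other transcripts, chiefly those of Gm6568.

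Herpud1, an ER membrane protein that helps deliver misfolded proteins for degradation, stood at 7.06, 19.5, 6.67, 11 and 18.1 FPKM in C mice, at 5.73, 1.07, 2.40, 8.26 and 9.41 FPKM in M mice and at 5.76, 9.17, 4.66, 6.64 and 7.56 FPKM in AA mice. C mice 2, 4 and 5 lay above all M and AA mice, whereas C mice 1 and 3 lay among them. M vs C was -1.20 (SE 0.48, adjusted p = 0.239 by limma) and AA vs C was -0.70 (SE 0.31, adjusted p = 0.0977), neither of which passed. With M mice 1 to 3 alone M vs C was -1.78 (adjusted p = 0.0183), and with M mice 4 and 5 alone it was -0.34 (adjusted p = 0.849). Herpud1, whose promoter holds ERSE-II, thus had a lower mean in M and in AA than in C, with overlapping ranges.

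Atf6, the sensor, was read at a low level of 0.561 to 1.28 FPKM in C, 0.243 to 1.49 FPKM in M and 0.911 to 1.76 FPKM in AA mice. The groups overlapped, and AA vs C was 0.32 (SE 0.19, adjusted p = 0.213 by limma). Its activation is by cleavage, which gene-level FPKM cannot show.

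Xbp1 encodes the transcription factor made from the message that IRE1 splices. It stood at 11.9, 11.9, 15.7, 6.00 and 5.72 FPKM in C mice, at 11.8, 8.07, 11.7, 6.43 and 8.54 FPKM in M mice and at 6.80, 12.7, 4.31, 5.52 and 7.70 FPKM in AA mice. The groups overlapped throughout, and AA vs C was -0.41 (SE 0.33, adjusted p = 0.343 by limma). Spliced and unspliced Xbp1 are summed in these values.

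Atf4 (ENSMUSG00000042406, chr15:80255184-80257541, plus strand), the effector of the PERK arm and of the wider integrated stress response, was the one gene of the 10 called in AA vs M. It stood at 14.9, 26.2, 26.3, 28.3 and 16.9 FPKM in C mice 1 to 5 and at 14.5, 23.8, 19.0, 17.9 and 29.0 FPKM in M mice 1 to 5. In AA mice 1 to 5 it stood at 8.38, 3.67, 9.58, 11.7 and 8.87 FPKM. Every AA mouse lay below every C and every M mouse, and C and M overlapped. The log2 fold change was -1.25 in AA vs M (SE 0.34, adjusted p = 0.0229 by limma) and -1.35 in AA vs C (SE 0.30, adjusted p = 0.00527), against -0.10 in M vs C (SE 0.30, adjusted p = 0.877).

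The values in AA rest on 78 to 566 recovered fragments a library, against 1126 to 4122 in C and 398 to 2131 in M. AA vs C was called under every setting tried and was lower still as TPM, at -2.41. AA vs M passed less firmly. As TPM it was -1.33 with an adjusted p of 0.189 by limma. Without AA mouse 2 it was -1.01 (adjusted p = 0.0531), and with M mice 4 and 5 alone it was -1.41 (adjusted p = 0.0600). With the mouse number as a block in the fit it was -1.25 with an adjusted p of 0.0561 by limma. ATF4 protein is set largely by translation, which these data do not measure.

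Ddit3 (ENSMUSG00000025408, chr10:127290774-127296288, plus strand) encodes CHOP, the transcription factor of prolonged ER stress, and lies downstream of ATF4. It stood at 7.89, 15.8, 14.0, 6.98 and 8.20 FPKM in C mice 1 to 5 and at 0.943, 0.906, 2.02, 1.36 and 1.74 FPKM in AA mice 1 to 5. All AA mice lay far below all C mice, with 14 to 52 recovered fragments against 405 to 1597. The log2 fold change of AA vs C was -2.23 (SE 0.26, adjusted p = 0.000233 by limma), the largest change of the 10 genes in any of the comparisons.

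In M mice 1 to 5 Ddit3 stood at 2.01, 0, 2.84, 5.63 and 16.6 FPKM, a range that held M mouse 2 with no fragment at all and M mouse 5 above every control. M mice 1 and 3 lay near the AA mice and M mice 4 and 5 did not. M vs C was -1.39 (SE 0.61, adjusted p = 0.274 by limma) with all M mice, -2.29 (adjusted p = 0.00622) with M mice 1 to 3 and -0.034 (adjusted p = 0.992) with M mice 4 and 5. AA vs M was -0.84 (SE 0.58, adjusted p = 0.340) with all M mice, 0.059 (adjusted p = 0.938) against M mice 1 to 3 and -2.20 (adjusted p = 0.0116) against M mice 4 and 5. The direction of AA vs M in Ddit3 thus differed with the M kidneys used. The annotation lists a second Ddit3 identifier of 105 exonic bases within the first, which was at 0 in all 15 libraries.

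Trib3, the least abundant of the 10 genes, stood at 0.352, 0.281, 0.737, 0.195 and 0.0844 FPKM in C mice, at 2.51, 0, 0.347, 0.594 and 0.573 FPKM in M mice and at 0, 0, 0.627, 0.777 and 0 FPKM in AA mice. It was listed at 0 in 1 M and 3 AA libraries, and the groups overlapped. AA vs M was -0.41 (SE 0.31, adjusted p = 0.392 by limma) and did not pass. Each AA library held 0 to 34 fragments of the gene, and the M mice spread from 0 to 2.51 FPKM.

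**Figure D2:**
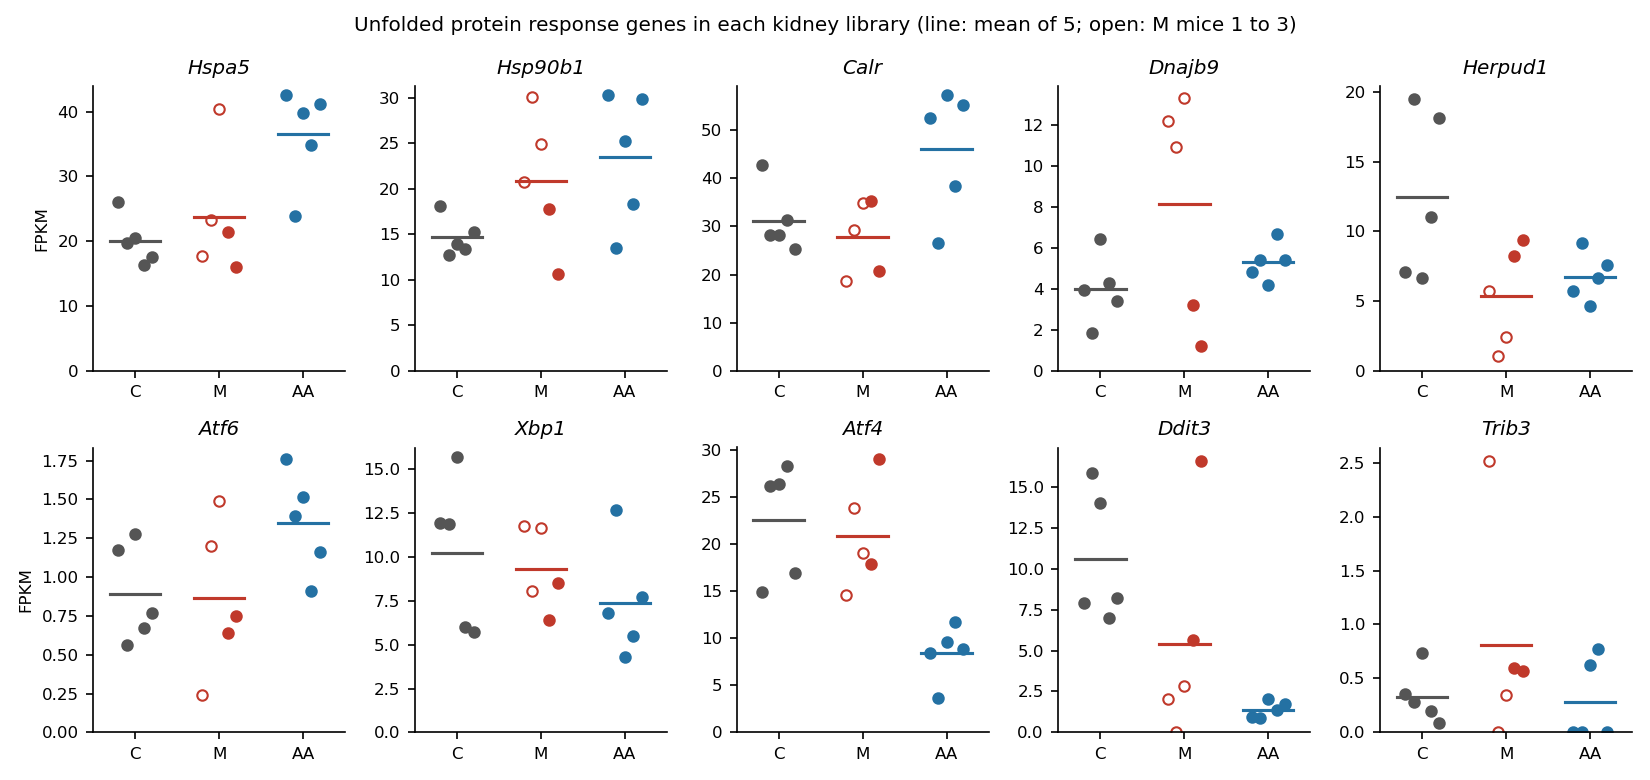
FPKM of each of the 10 genes (vertical axes, each starting at 0) in C, M and AA kidneys, with 1 point per mouse, a line at the mean of the 5 mice and open points for M mice 1 to 3. All AA points of Atf4 lie below all C and M points, all AA points of Ddit3 lie below all C points, and the open and filled M points of Dnajb9 stand apart.

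By comparison, then, 0 of the 10 genes were called in M vs C, where 1.38% of 21153 genes tested were called. In AA vs M 1 was called, Atf4, where 12.8% of 19798 genes tested were called and 1.07% were called lower. In AA vs C 2 were called, Atf4 and Ddit3, where 19.8% of 21898 genes tested were called and 9.61% were called lower. Groups did not overlap for 0, 1 and 2 of the genes in the same order, and for 4.72%, 13.2% and 24.0% of all genes tested. All 10 genes passed the filter of FPKM above 0 in at least 5 of 10 libraries in each comparison. These counts are near the share of all genes called. The median log2 fold change of AA vs C was 0.55 over the 4 ER chaperones and -1.35 over the 3 transcription factors, beside 0.091 over all genes tested. The value of -1.35 is that of Atf4, between Ddit3 at -2.23 and Xbp1 at -0.41. As TPM the 4 chaperones were below 0, with Hspa5 at -0.25, Hsp90b1 at -0.46, Calr at -0.57 and Dnajb9 at -0.53. M vs C and AA vs M share the M libraries, M vs C and AA vs C share the C libraries, and both AA comparisons share the AA libraries, so these comparisons are not independent. In M vs C, 3493 genes had an unadjusted p under 0.05, Herpud1 and Ddit3 among them.

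**Figure D3:**
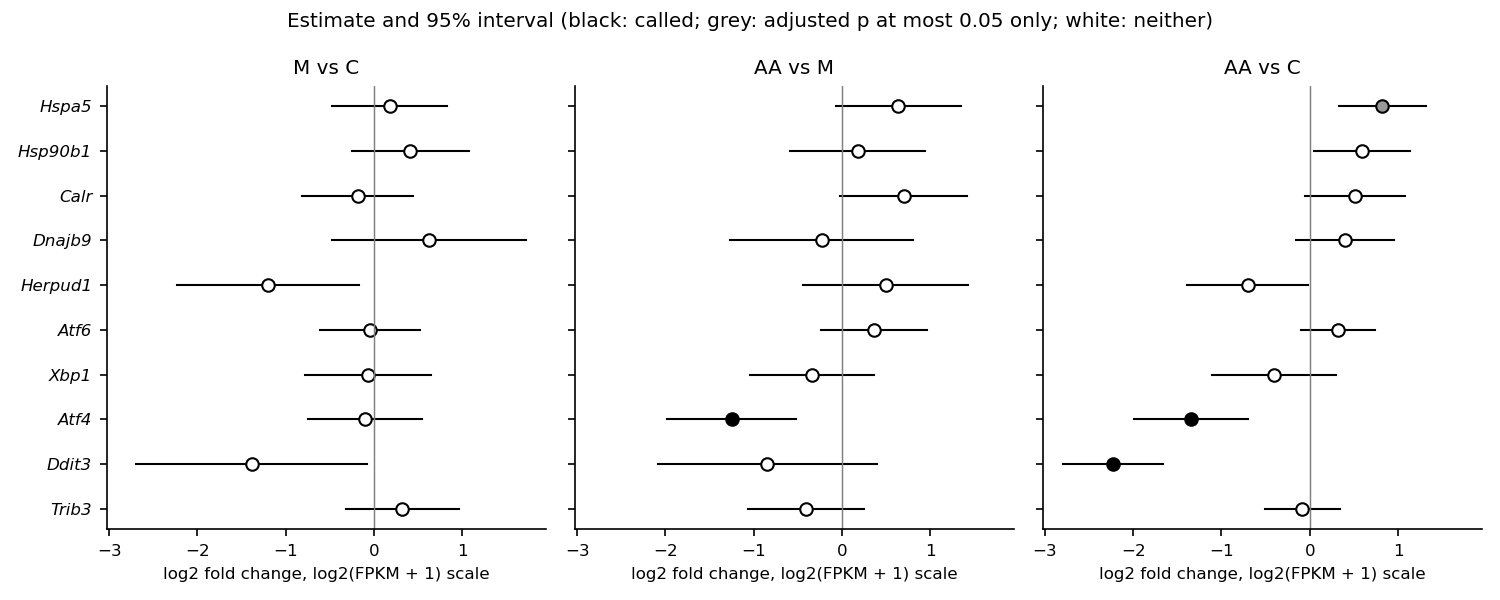
Log2 fold change on the log2(FPKM + 1) scale (horizontal axis) with its 95% interval for the 10 genes, with 1 panel for each comparison, from limma. Atf4 is called in AA vs M and AA vs C, Ddit3 is called in AA vs C, and Hspa5 passes the p threshold alone in AA vs C.

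A ratio of 2 genes within a library does not depend on how that library was scaled. Hspa5 over Atf4, chosen after the values were seen and given without a test, was 1.75, 0.752, 0.780, 0.579 and 1.04 in C mice 1 to 5. It was 1.22, 0.980, 2.13, 1.20 and 0.554 in M mice 1 to 5, and 5.09, 6.51, 4.16, 2.98 and 4.64 in AA mice 1 to 5. Every AA kidney lay above every C and M kidney, and M mice 1 to 3 overlapped with M mice 4 and 5. Calr over Atf4 likewise ran from 3.30 to 7.22 in AA against 1.07 to 2.88 in C and 0.718 to 1.97 in M. Hsp90b1 over Atf4 ran from 1.58 to 3.70 in AA against 0.473 to 1.22 in C and 0.368 to 1.43 in M. Atf4, the divisor of all 3 ratios, was itself lower in every AA mouse than in every C and M mouse. Ratios between chaperones overlapped. Hsp90b1 over Hspa5 ran from 0.528 to 0.726 in AA, 0.649 to 0.867 in C and 0.617 to 1.29 in M. Calr over Hspa5 ran from 1.11 to 1.44 in AA, 1.37 to 1.92 in C and 0.860 to 1.64 in M.

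**Figure D4:**
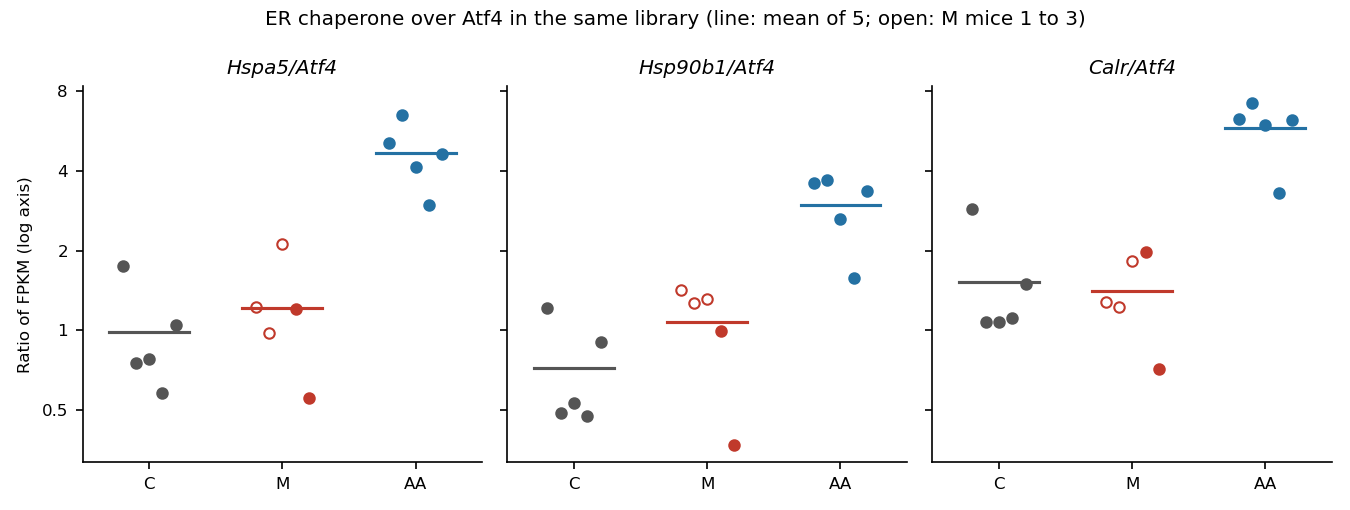
Ratio of the FPKM of Hspa5, Hsp90b1 and Calr to that of Atf4 in the same library (vertical log axis) for C, M and AA, with 1 point per mouse, a line at the mean and open points for M mice 1 to 3. In all 3 panels the 5 AA points lie above all C and M points, from 1.58 upward, and Atf4 alone was lower in every AA mouse.

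The genes whose level most resembled that of Hspa5 were sought among the 7207 genes above 0 in all 15 libraries, by Pearson's r of log2(FPKM + 1) over the 15 libraries. They were Pdia4 (r = 0.88), an ER disulfide isomerase, Dnajc3 (r = 0.87), which encodes the BiP co-chaperone p58IPK, Galk2 (r = 0.86), Rpn1 (r = 0.85), a subunit of the oligosaccharyltransferase, and Alg14 (r = 0.85), which acts in the making of N-glycan precursors. The 15 points share their group, depth and mitochondrial share, so the r values are a description. Among the 10 genes themselves, Hspa5 ran closest to Calr (r = 0.84) and Hsp90b1 (r = 0.76), and Atf4 and Ddit3 ran together (r = 0.62), while Hsp90b1 and Ddit3 ran opposite (r = -0.76). Herpud1 ran with Ddit3 (r = 0.66) and opposite to Hsp90b1 (r = -0.70) and Dnajb9 (r = -0.73).

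A wider list of 83 other genes of ER stress and secretion was read by role. In M vs C 0 of 83 were called. In AA vs M 80 were tested and 1 was called higher and 2 lower, where 11.7% and 1.07% of all genes tested were. In AA vs C 82 were tested and 5 were called higher and 6 lower, where 10.2% and 9.61% of all genes tested were. With M mice 1 to 3 only, 8 were called higher and 6 lower of 79 tested in M vs C, where 699 and 2705 of all genes were. In AA vs M the same M mice gave 5 higher and 6 lower of 80, where 3275 and 469 of all genes were. With M mice 4 and 5 only, 0 were called in M vs C, where 0 of all genes were. In AA vs M these M mice gave 0 higher and 8 lower of 80, where 460 and 1196 of all genes were. The fits with part of the M mice were filtered anew, and the number of all genes tested in them is not given here. No share of all genes therefore stands beside these counts, here or in the lists below, and none is read as a result about a list. Genes called in AA vs C alone are named because of their values.

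Among 19 further ER chaperones and folding enzymes, Sdf2l1, a component of the BiP chaperone complex, ran from 5.71 to 8.61 FPKM in AA, 0 to 4.92 in M and 0.809 to 5.70 in C mice. It was higher in every AA mouse than in every other mouse, with log2 fold changes of 1.43 in AA vs M (adjusted p = 0.0357 by limma) and 1.22 in AA vs C (adjusted p = 0.0108). The call in AA vs M was lost when M mouse 1 or 2 or AA mouse 1, 2, 4 or 5 was left out, with an adjusted p of up to 0.0798, and with M mice 4 and 5 only (0.93, adjusted p = 0.0755). Without C mouse 5, AA vs C of Sdf2l1 was 0.99, just short of the fold threshold. Canx (calnexin, the membrane partner of calreticulin) and Dnajc3 rose in AA vs C by 1.02 and 1.07, with adjusted p of 0.00454 and 0.00832. Creld2, an ER disulfide isomerase secreted under stress, ran from 0.649 to 4.09 FPKM in AA against 9.39 to 15.1 in C and 5.04 to 16.4 in M, and fell in AA vs M by 1.54 (adjusted p = 0.0179) and in AA vs C by 1.97 (adjusted p = 0.000862). Fkbp2, an ER prolyl isomerase, fell in AA vs C by 2.94 (adjusted p = 0.00271). As TPM, AA vs C of Canx was -0.0085. Canx fell short of the fold threshold without C mouse 2, 4 or 5 or AA mouse 1, 2 or 3, at 0.95 to 0.99, and Dnajc3 without C mouse 2 or AA mouse 1 or 5, at 0.91 to 0.98. Creld2 was called in AA vs M with either set of M mice, at -1.07 with M mice 1 to 3 and -2.25 with M mice 4 and 5. The median of the 19 in AA vs C was 0.29, beside 0.091 over all genes.

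The ERSE did not mark genes that moved one way. Besides 3 of the 10 genes above, 7 of the 70 wider-list genes with a window held it. Canx and Dnajc3 among them were called higher in AA vs C, and Creld2 and Syvn1 were called lower, so their sites are shown for comparison with those of Hspa5, Hsp90b1 and Calr.
Canx, chr11:50325795-50325823, minus strand: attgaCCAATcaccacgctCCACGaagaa
Dnajc3, chr14:118937822-118937850, plus strand: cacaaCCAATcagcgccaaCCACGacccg
Creld2, chr15:88819515-88819543, minus strand: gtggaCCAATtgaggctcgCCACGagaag
Syvn1, chr19:6046527-6046555, plus strand: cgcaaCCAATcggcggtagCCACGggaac
Of the 49 genes in the RefSeq table with ERSE or ERSE-II, 35 were tested in AA vs C, of which 2 were called higher and 7 lower, where 10.2% and 9.61% of all genes tested were. Their median log2 fold change was 0.027, beside 0.091 over all genes tested.

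Of the 15 genes of ER-associated degradation, 2 were called lower and 0 higher in AA vs C, where 9.61% and 10.2% of all genes tested were. Edem2, which trims mannose from misfolded glycoproteins, fell by 1.79 (adjusted p = 0.000586 by limma), and Syvn1, the ubiquitin ligase HRD1, fell by 1.12 (adjusted p = 0.00698), and by 0.96, short of the fold threshold, without C mouse 2. By the naming rule, Edem2 was named in M vs C (-0.72, adjusted p = 0.513) and Syvn1 and Edem1 in AA vs M (-0.80 and 0.58, adjusted p = 0.164 and 0.176), and none of these passed.

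Of the 18 genes of translocation and retrieval, 1 was called higher and 0 lower in AA vs C, where 10.2% and 9.61% of all genes tested were. The gene called was Spcs3, a signal peptidase subunit (1.47, adjusted p = 0.00319 by limma). Sec11c, another signal peptidase subunit, ran from 0.667 to 1.94 FPKM in AA against 2.82 to 7.79 in M, and fell in AA vs M by 1.31 (adjusted p = 0.0125). Sec11c was called there with either set of M mice, at -1.08 with M mice 1 to 3 and -1.65 with M mice 4 and 5. At the p threshold alone 5 of the 18 were higher and 1 lower in AA vs C, where 19.5% and 16.4% of all genes tested were.

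Of the 21 further genes of the integrated stress response, 20 were tested in AA vs C. Of these, 1 was called higher and 1 lower, where 10.2% and 9.61% of all genes tested were. Cebpb, a transcription factor that partners ATF4, was called higher (1.20, adjusted p = 0.00765 by limma). Ppp1r15a, which encodes the eIF2alpha phosphatase subunit GADD34, was called lower (-1.30, adjusted p = 0.0137 by limma). In M vs C the nearest to the threshold were Sesn2, a sestrin induced by ATF4, at -1.34 (adjusted p = 0.0553) and Atf3, at 1.45 (adjusted p = 0.0870), and in AA vs M Cebpb, at 1.03 (adjusted p = 0.0678) and Eif2s1, which encodes eIF2alpha, at -1.11 (adjusted p = 0.0688). Each was called without certain mice, Sesn2 without C mouse 1 or M mouse 5 (-1.51 and -1.49), Atf3 without C mouse 4 (1.80), Cebpb without M mouse 5 (1.36) and Eif2s1 without M mouse 4 or 5 (-1.31 and -1.34). The median of the role was 0.16 in M vs C, -0.34 in AA vs M and -0.12 in AA vs C, beside -0.12, 0.17 and 0.091 over all genes tested.

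Of the 10 sensors and ER membrane transcription factors, 1 was called lower and 0 higher in AA vs C, where 9.61% and 10.2% of all genes tested were. The gene called was Creb3, a membrane-bound factor cleaved like ATF6, at -1.07 (adjusted p = 0.0142 by limma). Without C mouse 2 or 5 or AA mouse 1, Creb3 was at -0.99, -0.95 and -0.90 and fell short of the fold threshold. Creb3 and Mbtps2, the site-2 protease that cleaves ATF6, were nearest the threshold in M vs C at -0.64 and 0.48 (adjusted p = 0.407 and 0.501). Ern2, an IRE1 paralog, and Creb3l1 were nearest in AA vs M at 0.48 and 0.98 (adjusted p = 0.0777 and 0.136).

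The cytosolic heat shock genes gave a list from another compartment. Of 11 genes 3 were called lower and 0 higher in AA vs C, where 9.61% and 10.2% of all genes tested were, with a median of -0.58. The 3 called in AA vs C included Hspa8, the constitutive cytosolic HSP70, at -1.25 (adjusted p = 0.0105 by limma). The others were its inducible relative Hspa1a at -1.14 (adjusted p = 0.0185, and -0.88 without C mouse 3), and Hsf1, the transcription factor of the heat shock response, at -1.20 (adjusted p = 0.00217). In M vs C and AA vs M 0 were called. With M mice 1 to 3 only, 1 was called higher and 1 lower of 11 in M vs C, where 699 and 2705 of all genes were. In AA vs M the same M mice gave 0 higher and 2 lower of 10 tested, where 3275 and 469 of all genes were. With M mice 4 and 5 only, 0 were called in M vs C, where 0 of all genes were. In AA vs M these M mice gave 0 higher and 1 lower, where 460 and 1196 of all genes were. Hspa8 also passed the p threshold alone in AA vs M, at -0.98 (adjusted p = 0.0479), and without M mouse 4 it was called at -1.15. Hsp90ab1 (1.06) and Hspa1b (-1.39) came nearest in M vs C, with adjusted p of 0.144 and 0.406, and Hsp90ab1 in AA vs M was -0.76 (adjusted p = 0.150). Ratios between ER and cytosolic relatives in the same library are given without a test and were chosen after the values were seen. Hspa5 over Hspa8 ran from 0.450 to 1.13 in AA against 0.104 to 0.436 in C and 0.142 to 0.415 in M kidneys. AA did not overlap with C or M. Hspa8, the divisor, was itself lower in every AA mouse than in every C mouse. It ran from 36.3 to 53.1 FPKM in AA against 59.8 to 189 in C and 51.8 to 113 in M. Hsp90b1 over Hsp90ab1 ran from 0.208 to 0.617 in AA against 0.210 to 0.420 in C and 0.0794 to 0.325 in M kidneys, and overlapped.

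**Figure D5:**
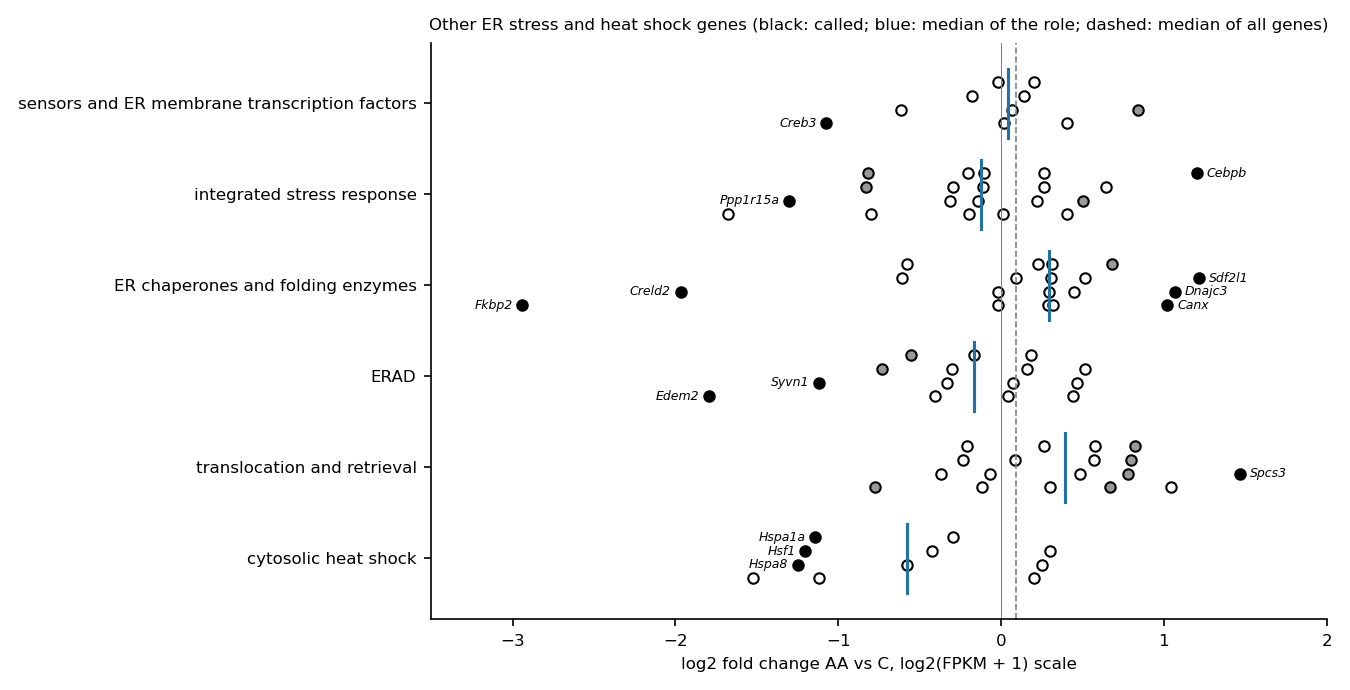
Log2 fold change of AA vs C (horizontal axis) for each gene of the wider list by role and for the cytosolic heat shock genes, with black points called, grey points past the p threshold alone and white points neither. Blue lines mark the median of each role, from -0.58 for cytosolic heat shock to 0.39 for translocation and retrieval, and the dashed line marks the median of all genes, 0.091.

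Markers of cell types moved between the groups beside these genes, and their part in the results was not tested. In M vs C 0.269% of all genes tested were called higher and 1.11% lower. Of the 10 proximal tubule markers 6 were called lower in M vs C, led by Slc34a1 (-5.65), Kap (-4.46) and Miox (-4.15), and 0 were called in AA vs M. Of the 6 distal nephron markers 3 were called lower in M vs C, Slc12a3 (-4.34), Aqp2 (-4.15) and Fxyd2 (-1.93), and 0 in AA vs M. Of the 8 macrophage markers 4 were called higher in M vs C, led by Lyz2 (4.32), Ctss (3.30) and C1qb (2.73), and C1qb was called lower in AA vs M (-1.36). Of the 7 fibroblast markers Col3a1 was called higher in M vs C (2.08) and Col1a1 in AA vs M (1.45). The fibroblast markers, from cells that secrete collagen, summed to between 62.5 and 141 FPKM in C, 124 and 426 in M and 263 and 456 in AA kidneys. In AA vs C, where 10.2% of all genes tested were called higher and 9.61% lower, 7 of the proximal tubule and 4 of the distal nephron markers were called lower and 0 higher. Of the macrophage markers 5 were called higher and 1 lower, and of the fibroblast markers 5 were called higher and 0 lower.

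Of the 9 B and plasma cell markers, Igkc was called lower in AA vs M (-1.71), and Cd79b and Mzb1 were at 0 in all AA libraries. The list did not move one way, since 5 were tested in AA vs M, 2 above 0 and 3 below 0. Mean FPKM was higher in AA than in M for Ms4a1 (0.174 against 0.00661) and Prdm1 (0.431 against 0.144). The sum of the 9 markers ran from 27 to 697 FPKM in C, 68.6 to 270.4 in M and 27.1 to 71.4 in AA kidneys. Of the 4 podocyte markers Wt1 was called higher in AA vs M (1.5). Of the 6 endothelial markers 0 were called in M vs C or AA vs M, where Tek, Egfl7 and Pecam1 were nearest, at -0.86 and -0.91 for Tek and Egfl7 in M vs C and at -0.75 and -0.33 for Egfl7 and Pecam1 in AA vs M. In AA vs C 2 of the B and plasma cell markers and 1 of the endothelial markers were called lower and 0 higher, and of the podocyte markers 1 was called higher and 1 lower.

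The marker calls of the M group depended on the mice included. With M mice 4 and 5 only, 0 of 49 markers tested were called in M vs C, where 0 of all genes were. With M mice 1 to 3 only, 10 were called higher and 16 lower of 48, where 699 and 2705 of all genes were. Of the 10 markers named as called in M vs C, Kap was called whichever mouse was left out, whereas the other 9, from Slc34a1 to Col3a1, were not called without C mouse 5 (adjusted p = 0.0513 to 0.113 by limma). In AA vs M Igkc and C1qb were called whichever mouse was left out. Wt1 was not called there without M mouse 1, 2 or 3 or AA mouse 1, 2, 3 or 4, with an adjusted p of up to 0.109 by limma, nor Col1a1 without M mouse 1, 2, 3 or 5 or AA mouse 1, 2, 3 or 5, with one of 0.0514 or more. With M mice 4 and 5 only, 0 markers were called higher and 4 lower of 45 in AA vs M, where 460 and 1196 of all genes were. With M mice 1 to 3 only, 7 were called higher and 6 lower of 43, where 3275 and 469 of all genes were.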

How the data were processed

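Poly-A RNA of 15 kidneys was sequenced in paired ends. The authors trimmed reads, aligned them with HISAT2 2.0.5 (mm10 and fastp are named in the submitters' processing notes), counted fragments on genes with featureCounts 1.5.0-p3 and deposited FPKM values. The annotation behind the counts and its strand setting were not given in the sources used here. Genes were named through GENCODE M21, which lacked 37 identifiers, and 2 of the listed genes, Ero1a and Ero1b, were found under older symbols.

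From the deposited FPKM, limma 3.58.1 in R 4.3.3 (lmFit, eBayes with trend) was fitted to log2(FPKM + 1), pseudocount 1, without blocks, on the 10 libraries of each comparison and genes above 0 in at least 5 of them. A fold change on this scale understates the change of low genes. Fragments were recovered from the steps of the FPKM values and gene lengths, where 97.8% to 99.0% of low values fell within 0.05 of a whole number, and a common factor stays unknown. The divisor behind the FPKM was 0.518 to 2.30 times the fragments on genes of the same library, and it followed median-of-ratios size factors to within 0.953 to 1.04 times, so the FPKM are already scaled between libraries by a method not given in the sources used here.

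The 10 genes, the lists and the tests were chosen with earlier results of these data known. Named are all 10 genes, of each role and marker list the genes called in M vs C or AA vs M (at most 3 a comparison) or otherwise the 2 with the smallest p, and the 5 genes most like Hspa5. Some genes that the rule or the lists hold are not reported here. The labels do not state whether the mice of a group were littermates or were processed together. Tested on simulated data with 200 genes changed by 2 on the log2 scale, the fits called 160 of them in M vs C (21153 genes, 4 false calls). They called 144 in AA vs M (19798 genes, 9 false calls) and 170 in AA vs C (21898 genes, 6 false calls). Each gene was drawn independently from a normal distribution with its own mean and spread. What genes of a library share, such as the split of the M mice, was left out. These false calls therefore do not measure error in the real libraries. Alternatives were a pseudocount of 0.1, no filter, a mean FPKM of at least 1, TPM, centring, no mitochondrial genes, all 15 libraries in one fit, a replicate block, each mouse left out and M mice 4 and 5 only. M mice 1 to 3 only and voom on recovered fragments were added after the data were seen. Analyses used Python 3.11.15, numpy 2.4.6, pandas 2.3.3 and matplotlib 3.10.9.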

Additional observations from a re-analysis of the deposited data

Results flagged for a closer look

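In groups of 5 mice, the gap between 1 mouse and its nearest neighbour exceeded the 95% critical value of Dixon's ratio (0.71 of the group's range) in 18 of 156 groups of named genes and the ratio of Hspa5 to Atf4, where chance flags about 5%. Among the 10 unfolded protein response genes there was 1 such value, Trib3 in M mouse 1 at 2.51 FPKM, above the next highest at 0.594.

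In C mouse 4, Atf3 stood at 3.10 FPKM, Igkc at 539 FPKM, Lyz2 at 49.6 FPKM, Ctss at 14.3 FPKM and C1qb at 21.2 FPKM, each far above the other C mice. In M mouse 5, Cebpb stood at 18.0 FPKM, Hspa1b at 5.81 FPKM, Hspa1a at 3.28 FPKM and Slc12a3 at 6.02 FPKM, each far above the other M mice. M mouse 3 had Spcs3 at 15 FPKM and M mouse 4 had Col1a1 at 126 FPKM, also above their group. In AA mouse 2, Hspa8 stood at 53.1 FPKM and Slc12a3 at 2.27 FPKM, above the other AA mice. AA mouse 5 had Edem2 at 2.71 FPKM above its group, and AA mouse 1 had Hsp90ab1 at 49.1 FPKM below its group. C mouse 3 had Eif2s1 at 1.51 FPKM above its group, and C mouse 2 had Pecam1 at 1.91 FPKM below its group.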

How the results depend on the processing

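Same-numbered mice of different groups showed correlations of -0.13 to 0.22 over the 3 pairs of groups. These values cannot decide whether same-numbered mice were processed together, which the labels do not state. The main fits used no block, since the study names none. With the number as a replicate block, 152 genes were called in M vs C, and 0 of the 10 unfolded protein response genes in AA vs M, where Atf4 had an adjusted p of 0.0561 by limma.

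The number of genes called in M vs C, 291 as reported, was 33 without a filter, 448 at a mean FPKM of at least 1, 1609 as TPM, 786 with all 15 libraries in one fit, 0 with M mice 4 and 5 only and 3404 with M mice 1 to 3 only. In AA vs M, 2533 as reported, it was 422 as TPM, 1656 with M mice 4 and 5 only and 4007 by voom on recovered fragments. In AA vs C, 4346 as reported, it was 7474 at a pseudocount of 0.1, 6785 as TPM, 7190 without mitochondrial genes and 7729 by voom. When each mouse was left out in turn, these counts ran from 4 to 954 in M vs C, from 1805 to 2897 in AA vs M and from 3463 to 4770 in AA vs C, the lowest count in M vs C without C mouse 5 and the highest without M mouse 5.

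Of the 10 genes, M vs C called 1 as TPM (Herpud1), where 1609 of all genes were called. With M mice 1 to 3 only it called 3 (Herpud1, Ddit3 and Dnajb9), where 3404 of all genes were called. It called from 0 to 1 when a mouse was left out (Ddit3 without M mouse 5, where 954 of all genes were called). AA vs M called 0 as TPM, where 422 of all genes were called, and 2 after centring (Atf4 and Ddit3), where 2813 were. With M mice 1 to 3 only it called 2 (Atf4 and Dnajb9), where 3744 of all genes were called. It called from 0 to 1 when a mouse was left out (0 without AA mouse 2). AA vs C called 4 as TPM (Atf4, Ddit3, Herpud1 and Xbp1), where 6785 of all genes were called. It called 2 whichever mouse was left out, where 3463 to 4770 of all genes were called.

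Directions turned as follows on the log2 scale, and the cause was not tested. In M vs C as TPM, Hspa5 was -0.81, Hsp90b1 -0.57, Dnajb9 -0.31 and Trib3 -0.0051. After centring on the library median, Calr was 0.18, Atf6 0.32, Xbp1 0.29 and Atf4 0.26. With M mice 4 and 5 only, Hspa5 was -0.089, Hsp90b1 -0.076, Dnajb9 -0.64, Atf4 0.061, Mbtps2 -0.12, Edem2 0.31 and Egfl7 0.17. With M mice 1 to 3 only, Atf6 was 0.021 and Xbp1 0.11, and without mitochondrial genes Xbp1 was 0.017. When a mouse was left out, Hspa5 ran from -0.025 to 0.29, Atf6 from -0.16 to 0.093, Xbp1 from -0.23 to 0.098 and Atf4 from -0.23 to 0.013.

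In AA vs M after centring, Hsp90b1 was -0.33, Herpud1 -0.018, Atf6 -0.15 and Ern2 -0.032. With M mice 4 and 5 only, Dnajb9 was 1.03 and Herpud1 -0.37, with M mice 1 to 3 only Hsp90b1 was -0.14 and Ddit3 0.059, and by voom Dnajb9 was 0.32. When a mouse was left out, Hsp90b1 ran from -0.028 to 0.35 and Dnajb9 from -0.66 to 0.016. In AA vs C as TPM, Hspa5 was -0.25, Hsp90b1 -0.46, Calr -0.57, Dnajb9 -0.53, Atf6 -0.33 and Canx -0.0085, and Trib3 ran from -0.22 to 0.015 when a mouse was left out. Hspa5 in AA vs C had an adjusted p of 0.0733 by limma without mitochondrial genes.

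The AA libraries held 0 to 34 recovered fragments of Trib3 and 14 to 52 of Ddit3 each.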
